A study of Homo sapiens with 41 samples.

Results

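Of 41 samples in the series, 6 ATAC-seq samples were compared: 3 labelled shCtrl and 3 labelled Ctrl, chosen by sample title alone. All 6 were labelled as made from MDA-MB231, an established human cell line from a triple-negative breast cancer, grown in DMEM with serum, with 100000 cells for each library. The titles of the Ctrl samples name no hairpin and no inhibitor, and shCtrl was read as a control hairpin. Whether Ctrl cells received a vehicle is not given in the titles. The deposited names set the Ctrl samples with the inhibitor experiment and the shCtrl samples with the HDAC6 knockdown experiment. The hairpin's sequence, the vector, the number of clones and the dates of preparation are not given in the labels, so the hairpin, the selection of the line and the time at which each group was made cannot be told apart. Another 3 ATAC samples with the HDAC6 inhibitor Nexturastat A (NextA, 5 µM for 2 days) and 3 with an HDAC6 hairpin (shHDAC6) were used only for reference, as were 2 Ctrl and 2 shCtrl lists of RNA polymerase II (PolII) ChIP. Whether the replicates were separate cultures is not given in the labels, and part of the spread among samples may be technical. Each p-value covers only the samples that its test compared. An exact permutation p-value cannot fall below a limit set by their number.

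ATAC-seq uses a transposase that inserts adapters where DNA is free of nucleosomes, so that promoters and enhancers in use appear as peaks of fragments. Housekeeping promoters are open in nearly every cell type, while distal elements differ most between cell types and states. A control hairpin line passes through viral delivery and drug selection in the usual protocol and is the reference for a knockdown. A difference between it and the Ctrl cells therefore bears on how far the 2 control groups can stand for each other.

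The deposited lists give for each peak a fold over the peak caller's background, with a p and a q value. Ctrl list 1 was made differently from the other 5. Its peaks had a median width of 407 bp, against 699 to 721 bp, and 100% of its peak numbering was kept, against 3.90% to 8.80% in the others. It also stood apart in content. The Jaccard index, the bases shared by 2 lists over the bases in either, was 0.509 between Ctrl lists 2 and 3 but averaged 0.344 over the 3 Ctrl pairs, and the lowest was 0.261. NextA list 1, which was made like Ctrl list 1, shared 0.561 with it. The main counts, the promoter share and the rank fit are therefore also given without Ctrl list 1. The position, sequence, gene-list membership and look-ups of lost and gained sites are given only with Ctrl list 1, which their rule used. From fold and p, the number of fragments stacked at a peak's summit (the pileup) and the local background were recovered. The commonest background was 1.19, 0.291 and 0.322 in Ctrl lists 1 to 3 and 0.564, 0.574 and 0.474 in the shCtrl lists, and the median peak held a pileup of 24, 10 and 10 in Ctrl and 12 in each shCtrl list. Pileups below were not scaled for these backgrounds, so pileups of different lists are not on 1 scale. The lists carry no read depth, and where a peak is absent none was called.

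The labelled cell type was checked at the promoters of fixed marker genes in the full lists. Of 8 markers of mesenchymal triple-negative cells, VIM and FOSL1 were among the 3 that had a peak in all 6 lists. ZEB1 went toward shCtrl, with a peak in 2 Ctrl and 3 shCtrl lists, and in 0 and 3 at equal length. Of 8 luminal breast markers, 2 had a peak in all 6 lists, 2 had none in any list, and the rest had one in some lists only. CD44, the hyaluronan receptor, and EGFR had a peak in all 3 Ctrl lists and in none of the shCtrl lists, AXL in 2 Ctrl and 0 shCtrl lists, and TGFBI in 1 and 0. The full shCtrl lists are shorter, and most of this contrast was not seen at equal length (the strongest 28883 peaks of each list). There CD44 had a peak in 0 Ctrl and 0 shCtrl lists, and EGFR, AXL and TGFBI each in 1 and 0. PolII peaks at CD44 and at TGFBI were present in both Ctrl lists and in neither shCtrl list, whereas AXL and EGFR had PolII in all 4. Of 5 markers of a kidney-derived packaging line, EMX2 and POU3F3 had a peak in Ctrl lists 2 and 3 and in all 3 shCtrl lists, NEFL in Ctrl list 3 and all 3 shCtrl lists, LHX1 in Ctrl list 3 and 2 shCtrl lists, and PAX2 in none. Of 6 neuron markers, GAD1 had a peak in all 6 lists, SYP in 3 Ctrl and 2 shCtrl lists, RBFOX3 and ELAVL3 in 2 Ctrl and 3 shCtrl lists, SNAP25 in 0 Ctrl and 3 shCtrl lists, and STMN2 in none. Of the leukocyte markers, SPI1 had a peak in all 6 lists, CD3E in 3 Ctrl and 0 shCtrl lists and CD14 in 1 Ctrl list, and PTPRC and TYROBP had none. Of 6 fibroblast markers, COL1A2 had a peak in 2 Ctrl lists and 1 shCtrl list, FAP and PDGFRB in 1 Ctrl list each, and DCN, LUM and PI16 in none. The part of these markers in the results below was not tested.

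CDKN2A and CDKN2B, cell cycle inhibitors at 9p21 that this line is commonly described as lacking, also separated the lists. Neither had a peak in Ctrl list 1. CDKN2B had one in Ctrl lists 2 and 3 and in all 3 shCtrl lists, and CDKN2A in 2 lists of each group. Around CDKN2A, Ctrl list 1 held no peak over 4.95 Mb (hg38, chromosome 9, 20732433 to 25677502). In the same stretch Ctrl lists 2 and 3 held 11 and 10 peaks, and the shCtrl lists 21, 17 and 14. NextA list 1 held 1 peak there and NextA lists 2 and 3 held 31 and 28. PolII showed the same split, with 1 peak in Ctrl list 1, 24 in Ctrl list 2 and 13 in each shCtrl list. Peaks at this locus in 5 of the 6 lists go against that description of the labelled line, and the identity of the cells was not tested. Ctrl list 1 had 13 peak-free stretches of at least this length, of which 4 held no peak in the other 5 lists either. The one where the other 5 lists held most peaks lay on chromosome 13 (80470085 to 87124102), with 24 and 27 peaks in Ctrl lists 2 and 3 and 45, 41 and 26 in the shCtrl lists. At these loci Ctrl lists 2 and 3 resembled the shCtrl lists in having peaks, and Ctrl list 1 went against both. These stretches were looked for after the data were seen.

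The shCtrl lists were shorter. After repeated intervals were merged, the Ctrl lists held 74018, 42113 and 44453 peaks and the shCtrl lists 32878, 32998 and 28883. These are peaks on the numbered chromosomes and X. Their average was 53528 ± 17783 in Ctrl and 31586 ± 2342 in shCtrl (SD over 3 lists). A two-sided exact permutation test gave p = 0.1, which is the lowest value open to 3 lists against 3. Without Ctrl list 1 the difference moved from -21942 to -11697 peaks. Every shCtrl list was shorter than every Ctrl list, and the covered length fell likewise, from 33.2 ± 1.66 Mb to 24.6 ± 1.91 Mb (SD over 3 lists; exact permutation p = 0.1). Because a longer list can hold a region only through its length, all further comparisons took the strongest 28883 peaks by fold of each list.

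At equal length, lists of the same group shared more bases on average than lists of different groups, though Ctrl list 1 shared as little as 0.261 with another Ctrl list. The mean Jaccard index was 0.420 within groups and 0.313 between them (exact permutation test over 10 splits, one-sided, p = 0.1, the smallest possible). The 3 shCtrl lists shared 0.492 to 0.4997 with each other. Without the 2 lists made differently (Ctrl 1 and NextA 1), Ctrl and shCtrl lists shared 0.382 to 0.388, Ctrl and NextA lists 0.445 to 0.457, and shCtrl and shHDAC6 lists 0.477 to 0.509. Ctrl lists thus shared more with NextA lists, and shCtrl lists more with shHDAC6 lists, than the 2 control groups shared with each other. The shHDAC6 lists 2 and 3 held 25878 and 28677 peaks and were taken whole.

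**Figure D1:**
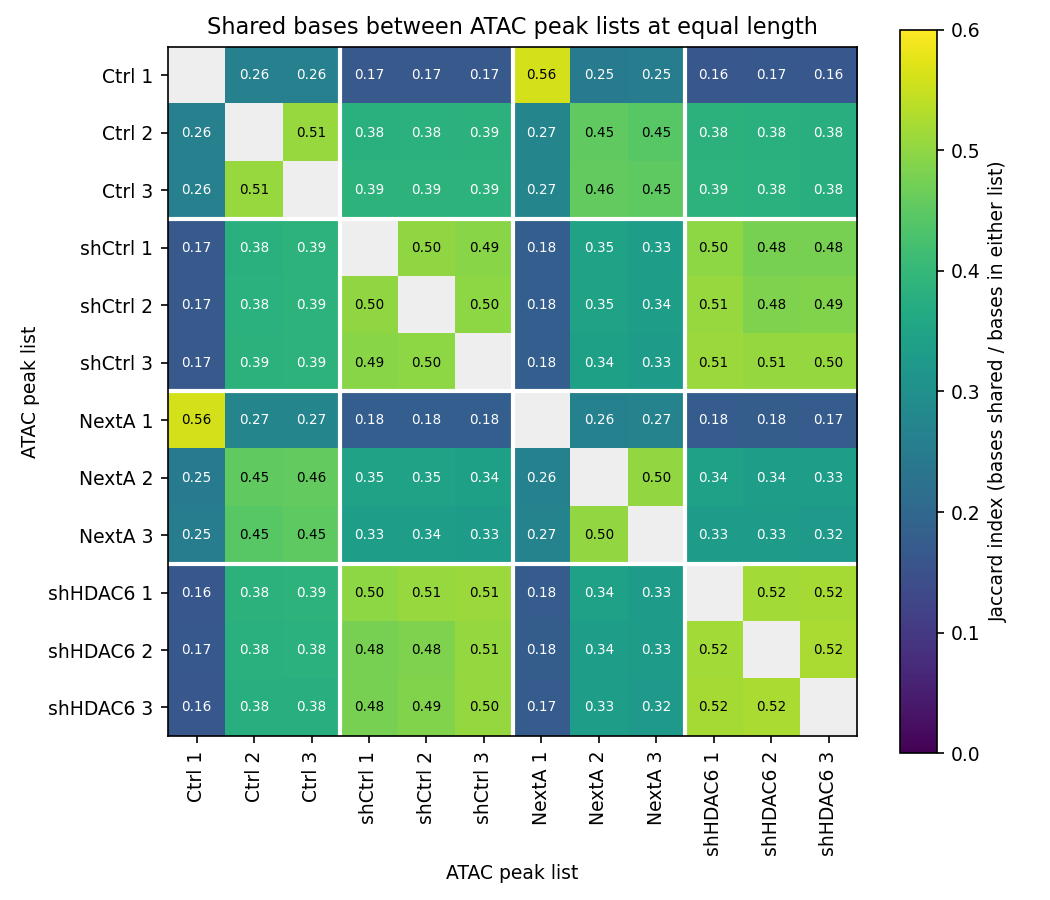
Jaccard index of bases for every pair of the 12 ATAC peak lists at equal length, with rows and columns by group and replicate and the index as colour and number. The 6 shCtrl and shHDAC6 lists form a block of 0.48 and above, and Ctrl list 1 pairs with NextA list 1 at 0.56.

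The difference reached into the strongest peaks. Of the top 10% of peaks in Ctrl lists 2 and 3, 99.6% and 99.5% were found in the other of these lists, and 86.7% to 88.4% in a shCtrl list. Of the top 10% of shCtrl peaks, 99.1% to 99.7% were found in another shCtrl list and 95.3% to 96.9% in Ctrl list 2 or 3. Between the 50 and 75 percentiles of fold, Ctrl peaks were found again in 84.7% to 85.3% within the group and in 62.2% to 63.8% in shCtrl lists. At each strength shown, recovery in the other control group lay below recovery within the group, with no overlap of the ranges, down to the peaks below the 25 percentile, where Ctrl peaks were found in 46.6% to 48.2% within the group and in 38.2% to 40.0% in shCtrl lists.

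**Figure D2:**
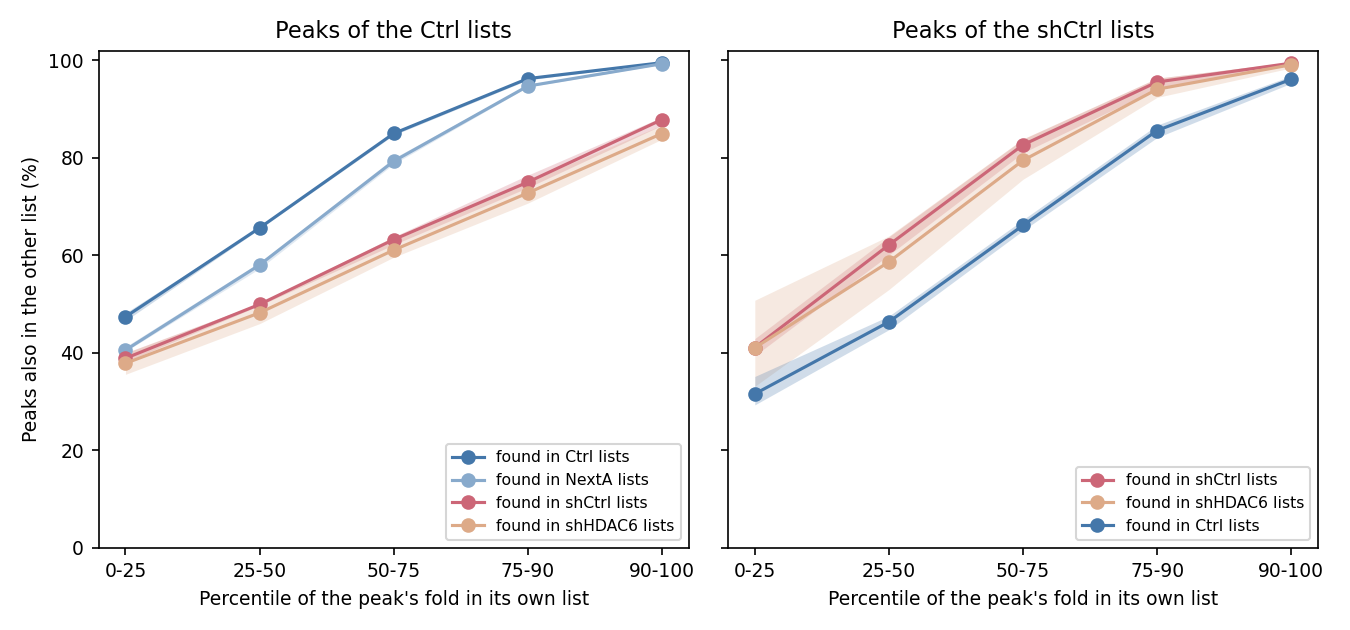
Percentage of the peaks of Ctrl lists 2 and 3 (left) and of the 3 shCtrl lists (right) that overlap a peak of another list, by the percentile of the peak's fold in its own list. Points are means over pairs of lists and bands the range, without Ctrl list 1 and NextA list 1; about 88% of the strongest Ctrl peaks were found in shCtrl lists.

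Merging the 6 equal-length lists gave 67301 regions. A region was called lost when it had a peak in 3 of 3 Ctrl lists and in none of the shCtrl lists, and gained in the reverse case. By this rule 3217 regions were lost (4.78% of those tested) and 2188 were gained (3.25%). Another 6815 were present in each of the 6. Lost regions made up 27.0% of the 11894 regions in all Ctrl lists, and gained regions 12.6% of the 17396 in all shCtrl lists. Without Ctrl list 1, the counts were 5121 and 2349. Leaving out any other list, which makes the rule easier to meet, gave 3507 to 4612 lost and 3342 to 3652 gained regions. The lost regions were also absent from the full shCtrl lists in 3093 cases (96.1%). Only 818 gained regions (37.4%) were absent from every full Ctrl list, and 26.7%, 34.0% and 39.7% had a weaker peak in full Ctrl lists 1 to 3. These shares are not comparable between losses and gains: the full shCtrl lists held 32878, 32998 and 28883 peaks, few or none beyond the equal length of 28883, while the full Ctrl lists held 42113 to 74018. A lost region could thus hardly reappear in a full shCtrl list.

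Lost regions lay away from promoters. A promoter, here 1 kb to each side of a RefSeq start of a protein-coding gene, was touched by 3.08% of lost and 14.4% of gained regions, against 17.2% of all regions and 64.3% of those in all 6 lists. More than 10 kb from any gene start lay 56.9% of lost, 50.5% of gained and 47.1% of all regions, but 15.0% of those in all 6 lists. In the Ctrl lists, lost regions had a median percentile of fold of 56.9, against 73.9 for regions in all 6 lists. Chromosome X held 1.55% of lost, 5.12% of gained and 3.39% of all regions. The share of promoters among the strongest peaks was 18.3%, 30.4% and 29.7% in Ctrl lists 1 to 3 and 31.7%, 32.0% and 34.7% in the shCtrl lists, a difference of 6.62 percentage points (exact permutation p = 0.1, two-sided). Without Ctrl list 1 it was 2.72 points (exact permutation p = 0.2, two-sided).

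The 5 strongest lost regions more than 10 kb from a start are given here by their pileups, which were not scaled between lists. Within NPR3, the gene of the natriuretic peptide clearance receptor (chromosome 5, 32767752 to 32768727), the pileup was 97, 24 and 26 in Ctrl lists 1 to 3, and no shCtrl list had a peak. At 27568 bp from SRI, a calcium-binding protein gene (chromosome 7, 88254544 to 88255421), it was 116, 21 and 24, again with none in shCtrl. At 48964 bp from RREB1, which encodes a zinc finger factor of Ras signalling (chromosome 6, 7057726 to 7058997), it was 127, 24 and 23 in Ctrl, and 1 full shCtrl list held a weak peak with a pileup of 7. All 3 NextA lists had these 3 regions, with pileups of 28 to 120. The other 2, within SLC35D4 on chromosome 18 and at 100954 bp from HMHB1 on chromosome 5, had pileups of 16 to 69 in the Ctrl lists, and the first of them a pileup of 6 in full shCtrl list 2.

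Among gained regions, the strongest more than 10 kb from a start lay within AKAP7, which encodes an anchoring protein of protein kinase A (chromosome 6, 131199522 to 131200376). Its pileup was 16, 18 and 16 in shCtrl, with a single weak peak of 8 in Ctrl list 1. At 91328 bp from PLXNA1, a semaphorin receptor gene (chromosome 3, 127074443 to 127075553), the pileup was 30, 36 and 32 in shCtrl and 12, 6 and 6 in Ctrl, and 33, 35 and 30 in shHDAC6. Within NCOA7, a nuclear receptor coactivator gene (chromosome 6, 125858358 to 125859326), it was 16, 18 and 15 in shCtrl and 6 and 5 in Ctrl lists 2 and 3. A region on chromosome X (113928637 to 113930142) had 16, 17 and 18 in shCtrl and no peak in any full Ctrl list. The fifth, on chromosome 16 (34587908 to 34588539), held 19, 32 and 15 in shCtrl but a pileup of 69 in full Ctrl list 1, which ranked too low there for the equal-length list.

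The same rule was applied to 19835 promoters of protein-coding genes, of which 15811 had their start in the RefSeq promoter table; for the rest a gene end was taken without knowing which end is the start. Among the genes named below, CCN1, OVOL2, FGFR1, NEFL and SNAP25 are of this kind, as are those marked as called at a gene end. Of these promoters, 103 were lost (0.519%) and 304 gained (1.53%), and 5106 had a peak in all 6 lists. Without Ctrl list 1 the counts were 181 and 324, and without any other list 120 to 132 and 404 to 644, the highest without Ctrl list 2. Of the 103, 95 had no peak in any full shCtrl list, and 40 of the 304 had none in any full Ctrl list, with the same limit from the length of the lists.

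HDAC6 itself, the target of the study on chromosome X (start 48802067), was open in all lists. Its pileup was 98, 31 and 34 in Ctrl and 35, 39 and 35 in shCtrl lists. In percentiles of fold within each full list these peaks stood at 74.7, 90.6 and 88.5 in Ctrl and at 95.1, 99.3 and 97.7 in shCtrl. It was neither lost nor gained, and it had a PolII peak in all 4 lists.

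The strongly lost promoters belonged to unrelated genes. ZNF254, a KRAB zinc finger gene on chromosome 19 (start 24087187), had pileups of 63, 23 and 16 in Ctrl and no peak in shCtrl or shHDAC6 lists. KRTAP4-6, a hair keratin-associated protein gene, had 48, 16 and 14, CHI3L2, a chitinase-like gene, 45, 13 and 17, and DNAH6, an axonemal dynein gene, 56, 14 and 12, each with no shCtrl peak. LOC124900641, SDSL, TPRG1 and PSORS1C1 were also among the strongest 10, of which SDSL and TPRG1 were called at a gene end, and PSORS1C1 had a weak peak with a pileup of 8 in 1 full shCtrl list. Zinc finger genes by name made up 10 of the 103 lost promoters and 573 of all 19835 (2.89%). Only a promoter with a peak in all 3 Ctrl lists could be lost, and zinc finger genes made up 287 of these 5453 promoters. Of the 10, 8 lay on chromosome 19: ZNF69, ZNF700, ZNF433, ZNF878, ZNF253, ZNF486, ZNF254 and ZNF83. No gained promoter of a zinc finger gene lay on chromosome 19, though 7 lay elsewhere. This group was chosen after its values were seen.

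**Figure D3:**
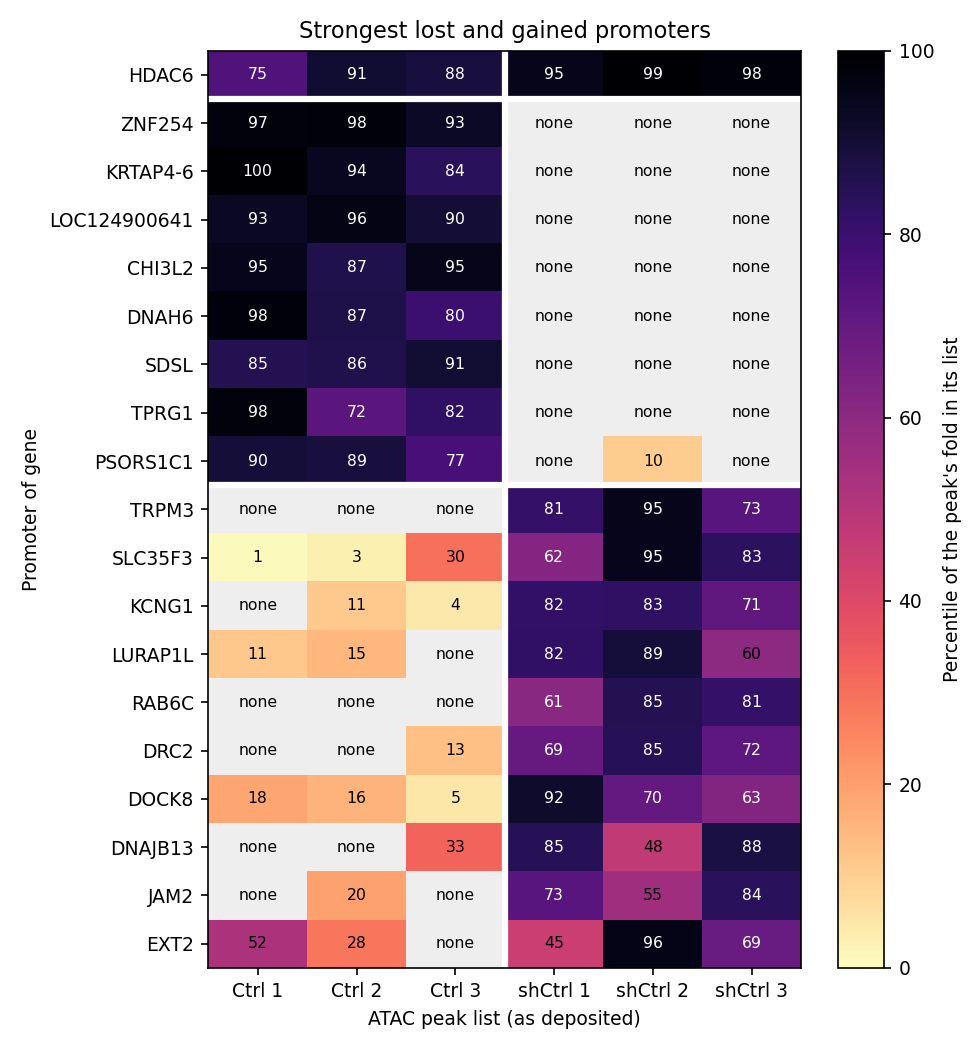
Percentile of fold in its own full list for the peak at HDAC6, 8 of the 10 strongest lost and the 10 strongest gained promoters (rows) in the 6 lists (columns); "none" means no called peak. Of the lost promoters shown only PSORS1C1 has a peak in a shCtrl list, while all gained promoters but TRPM3 and RAB6C have a peak in at least 1 Ctrl list.

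Immune and stress genes were among the losses, in small numbers. Of 41 promoters of interferon and nucleic acid sensing, 13 had a peak in all Ctrl lists, 2 were lost and none was gained, against 0.519% and 1.53% of all promoters. They were IFIT3, an interferon-induced antiviral gene with pileups of 48, 8 and 7 in Ctrl, and IRF7, an interferon regulatory factor called at a gene end with 67, 18 and 19. IFIT3 had PolII in both Ctrl and neither shCtrl list, but IRF7 had it in all 4. PSMB8, a subunit of the immunoproteasome, was the only loss among 17 antigen presentation genes, with 56, 18 and 17 in Ctrl. CXCL8, which encodes the chemokine interleukin-8, was lost among 28 genes of NF-kB and cytokines, with 52, 11 and 9, and its PolII peaks were in both Ctrl and neither shCtrl list. TRAF1, an adaptor of TNF receptors in the same list, was gained, but full Ctrl lists 1 and 2 held a peak. HSPA1A, a heat shock protein gene, was lost among 33 stress genes, with 72, 10 and 11 in Ctrl. Other immune genes outside these lists were also lost, among them AIM2, a DNA sensor, with 88, 11 and 11, and IL18, a cytokine gene called at a gene end, with 61, 11 and 11; both were picked after their values were seen.

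Of 29 epithelial and luminal genes, CLDN3, a tight junction gene, and TFF1, a secreted trefoil factor called at a gene end, were lost, with 22, 14 and 14 and with 78, 10 and 16 in Ctrl. OVOL2, an epithelial repressor, was gained at equal length, but all 3 full Ctrl lists held it. Of 31 mesenchymal genes 1 was gained, and none could be lost, since none had a peak in all 3 equal-length Ctrl lists. ZEB1, which drives the mesenchymal state, had pileups of 14, 10 and 12 in shCtrl and 22 and 8 in full Ctrl lists 1 and 3. In all 3 shCtrl lists 12 of the 31 had a peak, beside 8988 of the 19835 promoters. Of 34 growth factors and receptor kinases, 4 were gained (11.8%, against 1.53% of all promoters) and none lost (0.519% of all), with 3 in all Ctrl lists. FGF1, a fibroblast growth factor gene, had 8, 14 and 9 in shCtrl and no peak in any full Ctrl list. FGFR1, KIT and IGF2R had at least 1 peak in a full Ctrl list. NEFL, RBFOX3 and SNAP25 were gained among 18 neuron markers (16.7%), and POU3F3 and NEFL among 10 of the kidney packaging line (20%), against the same 1.53% of all promoters. POU3F3, a neural homeobox gene, had 23, 29 and 25 in shCtrl and 12 and 14 in full Ctrl lists 2 and 3.

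Several lists held no lost promoter at all: p53 and DNA damage (22 genes), AP-1 factors (18), YAP/TEAD (28), cell cycle (33), deacetylases and sirtuins (18), CTCF, cohesin and remodelling (32), ribosomal proteins (46) and oxidative phosphorylation (27). With 0.519% of all promoters lost, lists of this size could hold none at the background share, and only 2 AP-1 factor promoters had a peak in all Ctrl lists. Of these, YAP/TEAD gained CCN1, a secreted matricellular target of YAP, the cell cycle list gained MYBL2, a factor of S phase genes, and the chromatin list gained NIPBL, the cohesin loader. Full Ctrl lists held a peak at each of these 3. Ribosomal protein promoters had a peak in all Ctrl lists in 17 cases and in all shCtrl lists in 37, against 5453 and 8988 of all promoters. Ctrl list 1 marked the fewest promoters at equal length, 30.7% of all, against 49.0% to 54.7% in the other 5.

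The 10 strongest gained promoters belonged to genes of varied function. TRPM3, a cation channel gene on chromosome 9 (start 71446971), had pileups of 16, 22 and 13 in shCtrl and no peak in any full Ctrl list. RAB6C, a Rab GTPase gene (chromosome 2, start 129979666), had 8, 12 and 10 in shCtrl and none in Ctrl, and of the shHDAC6 lists 1 had a peak. KCNG1, a potassium channel gene called at a gene end, had 18, 19 and 15 in shCtrl, against 8 and 8 in full Ctrl lists 2 and 3, whose background was lower. The other 7 were SLC35F3, LURAP1L, DRC2, DOCK8, DNAJB13, JAM2 and EXT2, of which SLC35F3, DRC2 and JAM2 were called at a gene end, and each had a peak in at least 1 full Ctrl list. Among the 40 promoters without any Ctrl peak, picked after their values were seen, were the following 3: GRIN2A, an NMDA receptor subunit, had 13, 14 and 14 in shCtrl, SNAP25, a vesicle fusion protein, 9, 13 and 8, and ASIC2, an acid-sensing channel, 13, 11 and 15. Such pileups lie close to the median of the shCtrl lists, which was 12. The sequence of TRPM3 is shown because it is the strongest gained promoter, from 250 bases before the start to 30 from the start on, with each of its 25 CG in capitals. It is RefSeq's of GRCh38.p14, on the minus strand at chr9:71446942-71447221.
TRPM3: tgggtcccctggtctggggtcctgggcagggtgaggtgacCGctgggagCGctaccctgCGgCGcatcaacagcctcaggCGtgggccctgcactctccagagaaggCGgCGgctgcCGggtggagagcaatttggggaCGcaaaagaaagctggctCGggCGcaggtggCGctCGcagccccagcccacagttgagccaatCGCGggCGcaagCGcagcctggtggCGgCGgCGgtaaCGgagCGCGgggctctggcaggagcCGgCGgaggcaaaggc

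The sequence of lost promoters differed in composition from the rest. Over the 300 bases of the RefSeq table, 69 lost promoters had a median observed-to-expected CpG ratio of 0.446, against 0.763 over 15811 promoters, 0.852 over those in all 6 lists and 0.816 over 221 gained ones. The AP-1 motif TGANTCA, read on both strands, was present in 24.6% of lost promoters (17 of 69), in 5.76% of all, in 3.33% of those in all 6 lists and in 3.62% of gained ones. The GC box GGGCGG was present in 40.6% of lost, 58.5% of all and 69.7% of gained promoters. The cAMP response element TGACGTCA was in 0% of lost and 2.59% of all, the ETS motif CCGGAAG in 7.25% and 14.2%, TATAAA in 11.6% and 9.64%, and CAGGTG, bound by ZEB factors, in 27.5% and 19.9%. All motifs were read on both strands, and none of them contains another. A match is a description of the letters in this window only. Of the 17, ZNF83 and LOC122539214 share a start and so a sequence. The others included CXCL8, AIM2, KRTAP4-6, CPA4, SRI, LYST and ABL2. For 3 of them the sequence is shown with TGANTCA in capitals, over the same 280 bases and from the same source, because they carry this difference in composition. CXCL8 is on the plus strand at chr4:73740319-73740598, AIM2 on the minus strand at chr1:159076737-159077016 and KRTAP4-6 on the minus strand at chr17:41140515-41140794.
CXCL8: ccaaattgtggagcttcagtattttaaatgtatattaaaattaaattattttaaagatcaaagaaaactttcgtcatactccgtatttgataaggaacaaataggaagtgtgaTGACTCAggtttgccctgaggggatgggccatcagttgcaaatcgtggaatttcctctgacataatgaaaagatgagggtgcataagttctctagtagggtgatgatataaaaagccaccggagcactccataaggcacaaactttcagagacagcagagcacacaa
AIM2: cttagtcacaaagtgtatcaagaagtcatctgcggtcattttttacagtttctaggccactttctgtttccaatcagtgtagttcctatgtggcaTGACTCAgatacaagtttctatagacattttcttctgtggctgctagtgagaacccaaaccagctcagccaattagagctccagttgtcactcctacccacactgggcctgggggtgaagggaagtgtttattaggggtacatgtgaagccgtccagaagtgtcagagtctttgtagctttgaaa
KRTAP4-6: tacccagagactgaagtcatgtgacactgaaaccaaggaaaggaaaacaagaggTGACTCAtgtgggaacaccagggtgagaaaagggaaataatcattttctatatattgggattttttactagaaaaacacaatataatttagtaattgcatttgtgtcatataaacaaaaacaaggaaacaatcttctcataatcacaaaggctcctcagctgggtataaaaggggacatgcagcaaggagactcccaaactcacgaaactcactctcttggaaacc

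The lost and gained sites were then looked up in lists that had not been used to call them. At equal length, 91.1%, 75.9% and 76.4% of lost regions had a peak in NextA lists 1 to 3, and 5.56%, 3.92% and 4.45% in the shHDAC6 lists. Of gained regions, 4.62%, 26.3% and 25.6% had a peak in NextA and 72.9%, 61.3% and 66.5% in shHDAC6 lists. The means for lost regions were 81.2% and 4.64%, and for gained regions 18.8% and 66.9% (exact permutation test, two-sided, p = 0.1 for each, the smallest possible). For regions in all 6 lists the corresponding means were 92.5% and 95.9%. At equal length NextA lists thus resembled Ctrl and shHDAC6 lists resembled shCtrl at these sites, with no overlap between the NextA and shHDAC6 lists. In the full lists, 31.1%, 66.0% and 63.2% of gained regions had a peak in NextA lists 1 to 3, and 76.9%, 61.3% and 66.5% in the shHDAC6 lists. The full Ctrl lists held 26.7%, 34.0% and 39.7%. There NextA lists 2 and 3 lay within the shHDAC6 range, so that their absence at equal length was in part a matter of rank.

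**Figure D4:**
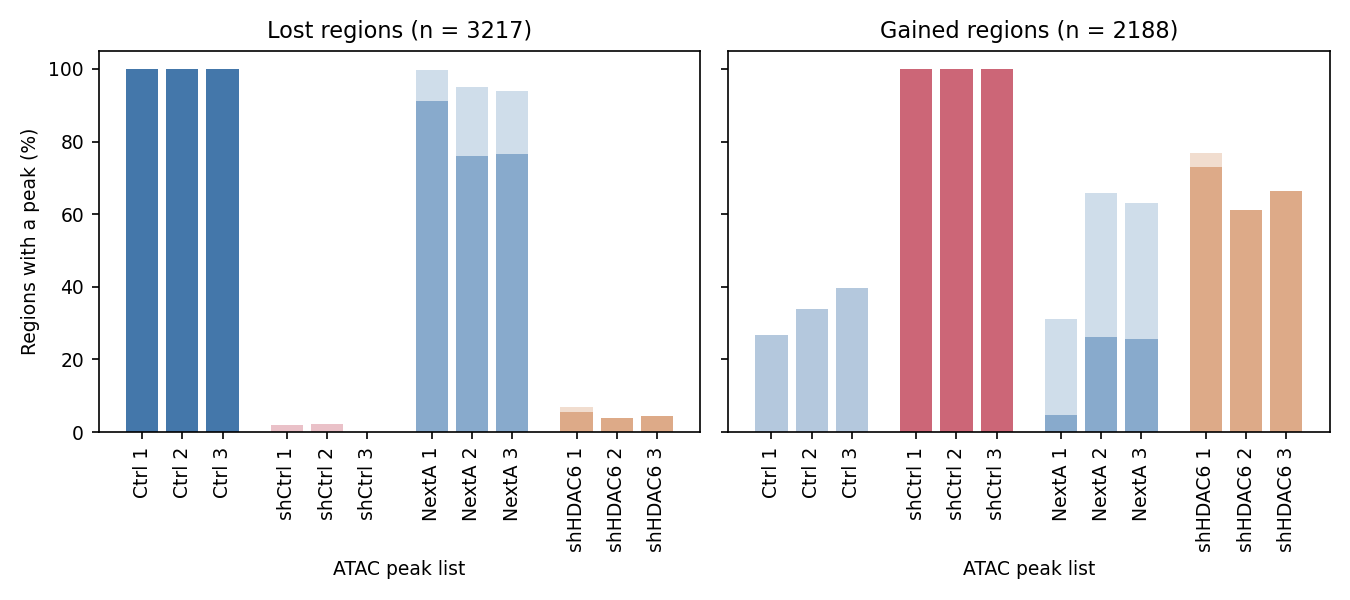
Percentage of lost (left) and gained (right) regions with a peak in each of the 12 ATAC lists, in dark colour at equal length and in pale colour in the full list. The Ctrl and shCtrl bars are fixed by the rule in the equal-length lists; NextA bars stand at 76% to 91% for lost regions and shHDAC6 bars at 4% to 6%.

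PolII gave a second readout. At the 103 lost promoters a PolII peak was called in 62.1% and 39.8% in the Ctrl lists and in 23.3% and 20.4% in the shCtrl lists, against 56.3%, 66.6%, 62.5% and 62.3% of all promoters. The means were 51.0% and 21.8% (exact permutation p = 0.333, two-sided, which 2 lists against 2 cannot go below). The Ctrl mean rested more on PolII Ctrl list 1, which stood apart at 9p21 as ATAC Ctrl list 1 did. At the lost regions PolII was called in 22.1% and 6.68% in Ctrl lists 1 and 2, and in 3.20% and 3.02% in the shCtrl lists. The part of this list in the difference was not tested. PolII was called in both Ctrl and neither shCtrl list at 16 of the 103 (15.5%), and at 1.24% of all promoters. At the 304 gained promoters the shares were 46.1% and 92.1% in Ctrl and 81.6% and 80.3% in shCtrl (exact permutation p = 1, two-sided), and the 2 Ctrl lists differed more from each other than from shCtrl. None of the 304 had PolII in both shCtrl and neither Ctrl list, which held for 119 of all promoters. At the 40 gained promoters without any Ctrl ATAC peak, PolII was called in 2.5% and 82.5% in Ctrl lists 1 and 2 and in 50% in each shCtrl list. Whether the ATAC and PolII samples of 1 replicate number share cells is not given in the labels.

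**Figure D5:**
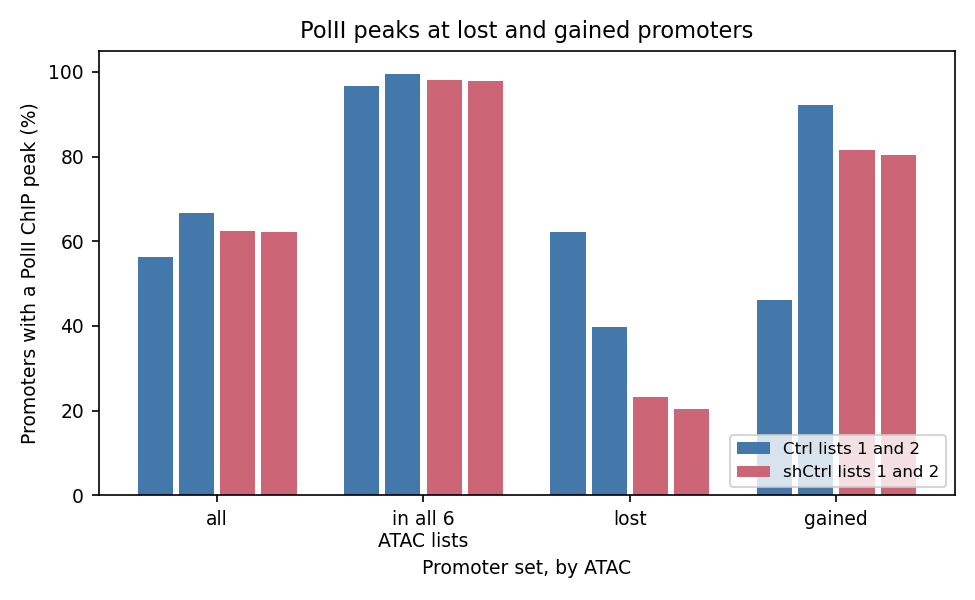
Percentage of promoters with a PolII ChIP peak in Ctrl lists 1 and 2 and shCtrl lists 1 and 2, for all promoters and for those in all 6 ATAC lists, lost or gained. At lost promoters both shCtrl bars (23% and 20%) stand below both Ctrl bars (62% and 40%), and at gained promoters Ctrl list 1 (46%) stands apart from the other 3.

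Where all 6 lists had a peak, its rank was compared. Ranks of fold in each list were turned into normal scores and fitted with limma over 6815 regions, with Benjamini-Hochberg adjustment over all of them. At an adjusted p under 0.05, 73 regions (1.07%) ranked lower in shCtrl and 14 (0.205%) ranked higher. All 73 and all 14 kept their sign when the same 6815 regions were fitted without Ctrl list 1, and 64 and 12 of them passed the test there as well. A separate fit without Ctrl list 1 took the 12183 regions with a peak in every remaining list, and called 77 lower and 47 higher. The other leave-out counts also come from regions merged anew. The counts were 38 and 1 without Ctrl list 2 or without shCtrl list 1, 32 and 0 without shCtrl list 2, and 17 and 0 without shCtrl list 3. For the last 2 settings 331 and 316 regions ranked higher in limma at an unadjusted p under 0.05. Over all regions the median difference was 0.06 score units, at promoters 0.13 and more than 10 kb from a start -0.21. Of the 73, 3 touched a promoter and 45 lay more than 10 kb from a start, and of the 14, 5 and 5.

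Regions away from promoters are named here after their values were seen, with percentiles among the 6815 regions. The largest fall lay within NFATC2, the gene of a calcium-regulated factor of T cells (chromosome 20, 51487483 to 51488617). It stood at percentiles 98.0, 94.2 and 93.3 in the Ctrl lists and at 2.7, 2.5 and 1.8 in the shCtrl lists, a difference of -3.71 ± 0.44 score units (SE; limma, adjusted p = 0.00086). A region within OSMR, the oncostatin M receptor gene (chromosome 5, 38871609 to 38872668), went from 92.5, 84.0 and 97.8 to 2.4, 1.8 and 6.2, a difference of -3.35 ± 0.47 (limma, adjusted p = 0.0034). A region within PBRM1, which encodes a subunit of a chromatin remodeller (chromosome 3, 52670516 to 52671525), went from 94.5, 70.4 and 93.4 to 2.4, 4.0 and 3.3, and 1 within PVT1, the non-coding neighbour of MYC, from 74.7, 74.8 and 83.8 to 26.0, 5.9 and 0.4. The 3 promoters that ranked lower were SPATA12, a testis gene, ZNF44, a zinc finger gene, and YWHAB, a 14-3-3 adaptor gene. ZNF44 went from 89.1, 79.8 and 91.4 to 6.1, 20.7 and 27.0 (difference -2.14 ± 0.45, limma adjusted p = 0.023). In none of these regions did the 2 groups overlap.

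The largest rise was at the promoter of P3H2, a collagen prolyl hydroxylase gene (chromosome 3, 190120114 to 190121403), from 1.7, 35.0 and 20.7 in Ctrl to 81.7, 91.8 and 98.8 in shCtrl. The difference was 2.62 ± 0.51 score units (SE; limma, adjusted p = 0.018). Promoters of ZNF518A, SLCO4C1, an organic anion transporter, DPY19L4, a mannosyltransferase family gene, and the pair CAPN14 and EHD3 also ranked higher. At SLCO4C1 the Ctrl lists stood at 30.5, 73.4 and 72.2 and the shCtrl lists at 99.0, 96.1 and 98.3, and the difference missed the threshold without Ctrl list 1 (limma, adjusted p = 0.081). No promoter of the fixed gene lists passed the test in either direction. The median difference was 0.38 over the 8 ranked interferon promoters, 0.37 over 17 ribosomal protein promoters, 0.51 over 8 p53 promoters and -0.32 over 7 antigen presentation promoters, beside 0.13 over all ranked promoters.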

How the data were processed

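The 6 ATAC-seq lists (and 6 more ATAC and 4 PolII ChIP lists used for reference) were analysed as deposited, on hg38. Per the submitters' processing notes, tools used included Trim Galore 0.6.7, Bowtie2 2.4.4, SAMtools 1.13, MACS2 2.2.7.1, deepTools 3.5.1 and ChIPseeker 1.28.2. The authors deposited for each peak a fold enrichment (a ratio to the caller's background) and −log10 p and −log10 q values, per the labels' tool list and the layout and range of the values (the lists have no header). Repeated intervals were merged, and the 28883 strongest peaks by fold were kept per list. Pileup and background were recovered from fold and p for 2000 peaks per list (100% solved within 0.001). Replicates were compared by exact permutation tests, and ranks by limma 3.58.1 (R 4.3.3) with Benjamini-Hochberg adjustment over 6815 regions. Python 3.11.15, pandas 2.3.3, NumPy 2.4.6 and SciPy 1.17.1 were used. The rank fit was tested on simulated data. For genes without a start in the RefSeq promoter table, the end marked in more lists stood in for the start. Named were the 10 strongest lost and gained promoters, list members that were lost or gained, the 5 strongest distal regions each way and promoters past the rank test. Lists and rules were chosen with earlier results of these data known. Other replicate groupings, list lengths, overlap and rank measures were tried as alternatives. 9 of 41 samples were not analysed here. Some named promoters are not reported here.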

Additional observations from a re-analysis of the deposited data

How the results depend on the processing

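The differences in peak number, covered length, promoter share and list similarity kept their sign under every alternative run, but the balance of lost against gained did not. Promoters were 103 lost and 304 gained, against 95 and 40 with absence from the full lists, and regions 3217 and 2188, against 3507 and 3652 without shCtrl replicate 3. Taking the full lists gave 7325 lost and 989 gained regions, 288 lost and 55 gained promoters, and 157 regions lower and 47 higher in rank. The strongest 10000 peaks gave 775 lost and 816 gained regions, 22 lost promoters, and 5 regions lower and 0 higher in rank by limma (63 higher at an unadjusted p under 0.05). Requiring absence from the other group's full lists, an alternative chosen after seeing the data, left 818 gained regions and 40 gained promoters; without Ctrl replicate 1 it gave 4869 lost and 1035 gained regions and 59 gained promoters. Ranking by −log10 p gave 148 regions lower and 23 higher, and a percentile in place of a normal score gave 9 lower and 0 higher by limma (437 higher at an unadjusted p under 0.05). The cause of these shifts was not tested, beyond the length of the lists.

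Leaving out 1 replicate at a time gave 3507 to 5121 lost and 2349 to 3652 gained regions, 120 to 181 lost and 324 to 644 gained promoters, 17 to 77 regions lower and 0 to 47 higher in rank. It moved the difference in peak number between -27649 and -11697 and in covered length between -9.39 and -7.50 Mb, in promoter share between 2.72 and 8.76 percentage points, and in the Jaccard index within over between groups between 0.0683 and 0.162. With the replicate block the rank fit called 109 regions lower and 20 higher. Replicates of the same number did not deviate together in rank over the 6815 regions in all 6 lists (correlations -0.000254, 0.00795 and -0.00173). This cannot show whether samples of 1 number were prepared together, which is not given in the labels. Depth is not given in the lists, so the part of depth in list length could not be measured.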
